A study of Mus musculus with 12 samples.

Results

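The genes described here are 10 regulators of entry into the cell cycle, measured in mouse liver by bulk RNA sequencing. They were listed by name, with earlier results of these data known, out of 24187 genes in the deposited count table. All 10 were found and passed the filter on low counts. They are the D cyclins Ccnd1, Ccnd2 and Ccnd3, the E cyclins Ccne1 and Ccne2, the kinases Cdk4 and Cdk6, the transcription factors E2f1 and Myc, and the inhibitor Cdkn1b. The 12 livers came from 3 untreated control mice, 5 mice given acetaminophen (APAP) and then phosphate-buffered saline vehicle, and 4 mice given APAP and then hAAMs. APAP is toxic to hepatocytes of the central lobule, which turn it into a reactive metabolite. hAAMs are human alternatively activated macrophages, made by maturing blood monocytes from donors with CSF1 and polarising them with IL-4 and IL-13. The study names the mice as both C57BL/6J and C57BL6/JOlaHsd in its methods, aged 10 to 12 weeks, and gives the sex of no sequenced liver. The labels give an APAP dose of 350 mg/kg. A dose of 500 mg/kg belongs to the severe model shown beside these livers, and these doses could not be reconciled. Injected mice were fasted beforehand, and the labels call the controls untreated, so APAP, the fast and the injections cannot be told apart in the comparisons with control. Vehicle or hAAMs followed 16 h after APAP, and collection is given as 32 h in a legend and 36 h in the methods. The comparisons ask how this gene group stands in the injured liver and whether it differs between the treatments.

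In a resting cell, pocket proteins such as RB1 hold E2F factors silent. Mitogens raise MYC and the D cyclins, which bind CDK4 or CDK6 and begin to phosphorylate RB1, and freed E2F then switches on the E cyclins and the genes of DNA replication. p27, the product of Cdkn1b, binds and restrains the cyclin and CDK complexes. Adult hepatocytes are mostly quiescent and re-enter the cycle after loss of liver tissue, and Ccnd1 is the D cyclin best known in that response.

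The promoters of both D cyclin kinases are shown because Myc, one of the genes that rose, binds the E-box CACGTG, and Cdk4 is a long-known MYC target. They are RefSeq promoters on GRCm38.p6, read 5′ to 3′ on the gene's strand from 250 bases before to 50 after the start site, and capitals mark CACGTG. Cdk4 lies on the plus strand at chr10:127063285-127063584 and Cdk6 on the plus strand at chr5:3343643-3343942.

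Cdk4 promoter: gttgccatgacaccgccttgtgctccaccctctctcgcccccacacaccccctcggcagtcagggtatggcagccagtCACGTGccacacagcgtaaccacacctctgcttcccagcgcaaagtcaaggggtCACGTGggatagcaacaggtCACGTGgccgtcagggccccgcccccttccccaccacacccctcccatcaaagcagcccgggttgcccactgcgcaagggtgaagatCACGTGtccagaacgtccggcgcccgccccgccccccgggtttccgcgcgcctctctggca

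Cdk6 promoter: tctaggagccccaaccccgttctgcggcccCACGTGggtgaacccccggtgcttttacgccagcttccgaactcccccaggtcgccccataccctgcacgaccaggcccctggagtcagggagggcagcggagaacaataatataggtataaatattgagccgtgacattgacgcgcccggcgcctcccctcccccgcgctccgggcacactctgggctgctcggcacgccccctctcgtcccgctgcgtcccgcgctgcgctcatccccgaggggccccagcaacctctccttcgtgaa

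The Cdk4 promoter held CACGTG 4 times, its first base lying 172, 118, 98 and 11 bases before the start, and the Cdk6 promoter held it 1 time, 220 bases before the start. Of 32851 mouse promoters of the same length, 7.15% held at least 1 CACGTG and 0.0244%, or 8 promoters, held it at least 4 times. CACGTG reads the same on both strands, so each match was counted once. RefSeq promoters were found for 6 of the 10 members, with 2 for Ccnd3, which made 7 promoters. The other 5, those of Ccnd3, Ccne1, E2f1 and Cdkn1b, held no CACGTG. No promoter of a member held any of the E2F 8-mers TTTCCCGC, TTTGGCGC, TTTGCCGC or TTTCGCGC on either strand, which 2.26% of all promoters did, and these letters being absent from these windows says nothing of E2F binding. The windows follow RefSeq start sites, and in the GENCODE annotation those of Cdk6 and E2f1 lie wholly inside the gene, beginning 2158 and 216 bases past its 5′ end, as does the second window of Ccnd3. The sequence upstream of those annotated 5′ ends was not searched for Cdk6 and E2f1.

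Total counts per liver were 47391650 to 74056505. The libraries of vehicle replicate 3 and hAAM replicate 4 were near-identical, with a spread between them of 1.20 times counting noise, where the other 35 pairs of APAP livers gave 2.38 to 4.94. Both were kept under their labels, and results are given without them where a member's call or a list's count changed. hAAM replicate 3 stood apart in the other direction. It was the lowest of the 9 APAP livers for 6 of the 10 members, and its Cyp2e1, a pericentral enzyme that activates APAP, was at 2464 CPM (counts scaled to the size of the library), against 239 to 1300 in the other APAP livers and 2555 to 3992 in control livers. Values below are CPM scaled by edgeR's TMM factors. In bulk tissue, fewer cells of a type and less RNA per cell cannot be told apart, and p-values measure the spread between these livers.

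Against control, Myc, Cdk6, E2f1 and Ccne1 rose in vehicle-treated mice, and Myc, Cdk6 and E2f1 rose in hAAM-treated mice. No D cyclin passed the test in either group, and neither did the inhibitor Cdkn1b. In vehicle-treated mice 4 of 10 members rose at a false discovery rate (FDR) under 0.05, where 15.0% of all 22581 genes tested did, and 0 fell, where 14.8% of all genes did. In hAAM-treated mice 3 of 10 rose against 10.7% of all genes, and 0 fell against 9.96%. For 6 members every vehicle-treated liver lay above every control liver, against 17.5% of all genes, and for 3 members every hAAM-treated liver did, against 14.3%. Both comparisons share the 3 control livers. The median log2 fold change of the members was 0.59 with vehicle and 0.57 with hAAMs, beside 0.012 and 0.016 over all genes tested.

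**Figure D1:**
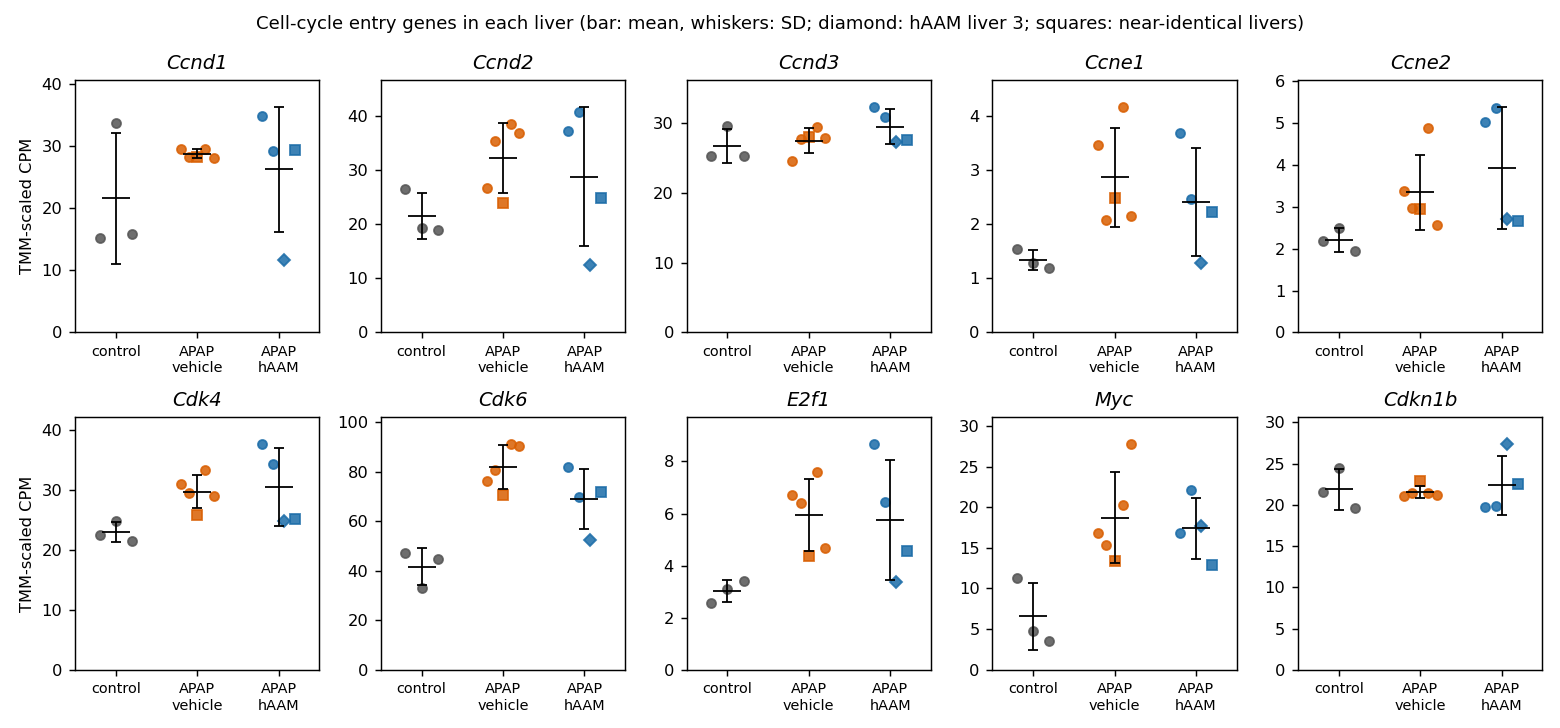
TMM-scaled CPM of each of the 10 genes (y axis, from 0) in every liver of the 3 groups (x axis), with the group mean and SD in black, hAAM replicate 3 as a diamond and the 2 near-identical livers as squares. Cdk6 and Myc are higher in all 9 APAP livers than in the 3 control livers, and the diamond is the lowest APAP point for 6 genes.

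The counts called above depended on few livers. Without both near-identical livers, Cdk4 joined the 4 genes called with vehicle (5 in all), and Cdk4 and Ccne2 joined the 3 called with hAAMs (5 in all). Without hAAM replicate 3, 6 members rose with vehicle and 7 with hAAMs. In the other direction, without control replicate 2 Cdk6 and Myc were the members called with vehicle (2 in all) and Cdk6 the member called with hAAMs (1 in all). The count with hAAMs was also 1 without control replicate 3 or hAAM replicate 2, and 5 without hAAM replicate 4. Calls over all genes with hAAMs moved too, from 4666 to 5456 without hAAM replicate 3 and to 2419 without control replicate 3. List counts without 1 liver, given below, stand beside the same moves. Cdk6 was called in both comparisons whichever liver was left out.

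Ccnd1, the cyclin most tied to hepatocyte regrowth, did not pass the test in either comparison. Control livers read 15.2, 33.8 and 15.8 CPM, vehicle-treated livers 29.6, 28.4, 28.3, 29.6 and 28.1 CPM, and hAAM-treated livers 34.8, 29.2, 11.7 and 29.4 CPM. Of the control livers, replicate 2 was above every vehicle-treated liver, and hAAM replicate 3 was below every control liver, so the groups overlap at both ends. With vehicle the log2 fold change came to 0.41 (SE 0.32, 95% interval -0.28 to 1.10, FDR = 0.351) and 0.28 with hAAMs (SE 0.33, 95% interval -0.44 to 1.00, FDR = 0.580). The 5 vehicle-treated livers had an SD of 0.727 CPM, against 10.6 CPM in control and 10.1 CPM with hAAMs. The estimates rested on single livers. Without control replicate 2 they were 0.89 with vehicle (FDR = 0.0558) and 0.76 with hAAMs (FDR = 0.119), without control replicate 1 they were 0.21 and 0.084, and without control replicate 3 they were 0.23 and 0.10. With hAAMs the estimate was 0.12 without hAAM replicate 1 and 0.53 without hAAM replicate 3. None of these passed the threshold.

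Ccnd2, a D cyclin with overlapping function, was more abundant in most injured livers. It read 26.4, 19.2 and 18.9 CPM in control livers, 26.6, 35.2, 23.8, 38.4 and 36.8 CPM with vehicle, and 37.1, 40.7, 12.4 and 24.8 CPM with hAAMs. Of the vehicle-treated livers 4 of 5 were above all control livers, while hAAM replicate 3 was below all of them. The log2 change came to 0.58 with vehicle (SE 0.31, FDR = 0.182) and 0.42 with hAAMs (SE 0.33, FDR = 0.387), and it passed the test in both comparisons without hAAM replicate 3 (FDR = 0.0483 and 0.0499). With hAAMs the estimate was 0.21 without hAAM replicate 2 and 0.67 without hAAM replicate 3. Over all alternatives the FDR of Ccnd2 was 0.00804 to 0.368 with vehicle and 0.00733 to 0.710 with hAAMs.

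Ccnd3, the D cyclin prominent in blood cells, was the flattest of the 3. Its levels were 25.3 to 29.6 CPM in control livers, 24.6 to 29.5 CPM with vehicle and 27.3 to 32.4 CPM with hAAMs. The 95% interval of its log2 fold change was -0.14 to 0.23 with vehicle and -0.052 to 0.34 with hAAMs (FDR = 0.746 and 0.280). Bysl, on the opposite strand of its locus, was at -0.30 with vehicle (FDR = 0.0895).

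Of the kinases that the D cyclins activate, Cdk6 passed the test in both comparisons and Cdk4 just missed it, and the difference between them was not tested. Cdk6 read 47.2, 33.2 and 44.7 CPM in control livers, 76.4, 80.6, 70.4, 91.2 and 90.2 CPM with vehicle, and 82.0, 69.8, 52.6 and 71.8 CPM with hAAMs. All 9 APAP livers were above all 3 control livers, and hAAM replicate 3 was again the nearest to them. Cdk6 rose 1.96-fold with vehicle (log2 0.97, SE 0.16, FDR = 0.00121) and 1.66-fold with hAAMs (log2 0.73, SE 0.16, FDR = 0.00938). Its FDR stayed at or under 0.0348 in both comparisons under every alternative run. The antisense genes Gm42435 and Gm17590 overlap Cdk6 and rose with it in vehicle-treated mice (log2 1.22 and 0.80), and how reads of the 2 strands were assigned is not stated.

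Cdk4 read 22.5, 24.9 and 21.6 CPM in control livers, 30.9, 29.5, 25.8, 33.4 and 29.0 CPM with vehicle, and 37.7, 34.4, 24.8 and 25.2 CPM with hAAMs. Every vehicle-treated liver was above every control liver, and hAAM replicates 3 and 4 were near the highest control liver. Its log2 fold changes of 0.37 (SE 0.14, FDR = 0.0622) and 0.41 (SE 0.15, FDR = 0.0648) missed the threshold. With vehicle it passed without vehicle replicate 3 or hAAM replicate 1, 3 or 4, and with hAAMs without hAAM replicate 3 or 4. DESeq2 placed both just past the threshold (FDR = 0.0496 and 0.0455), and over all alternatives the FDR was 0.0030 to 0.178 with vehicle and 0.0012 to 0.179 with hAAMs. Tspan31, which overlaps Cdk4 on the other strand, had a log2 fold change of -0.22 with vehicle (FDR = 0.210) and -0.19 with hAAMs (FDR = 0.338).

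The E cyclins, which activate CDK2 at the start of S phase, were the least abundant members. Ccne1 read 1.54, 1.29 and 1.19 CPM in control livers, 3.46, 2.07, 2.48, 4.17 and 2.16 CPM with vehicle, and 3.69, 2.46, 1.28 and 2.22 CPM with hAAMs, from 60 to 282 counts per liver. With vehicle every liver was above all control livers, while hAAM replicate 3 lay inside the control range. Ccne1 rose 2.14-fold with vehicle (log2 1.10, SE 0.33, FDR = 0.0251). With hAAMs its log2 fold change was 0.85 (SE 0.34, FDR = 0.0950), and without hAAM replicate 3 it was 1.06 (FDR = 0.0249). The call with vehicle was lost without control replicate 2 or 3 or vehicle replicate 1 or 4, with an FDR of 0.0048 to 0.0877 over all alternatives. The FDR with hAAMs was 0.0227 to 0.251 over the alternatives.

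Ccne2 read 2.17, 2.50 and 1.94 CPM in control livers, 3.37, 2.98, 2.94, 4.88 and 2.57 CPM with vehicle, and 5.03, 5.35, 2.71 and 2.65 CPM with hAAMs. All 9 APAP livers were above the control livers, though the lowest of them by little. The log2 change came to 0.60 with vehicle (SE 0.28, FDR = 0.121) and 0.84 with hAAMs (SE 0.29, FDR = 0.0604). With hAAMs it passed without vehicle replicate 4, hAAM replicate 3 or hAAM replicate 4, and its FDR was 0.0061 to 0.171 over the alternatives. Ints8, on the opposite strand of the same locus, fell by 0.29 on the log2 scale with vehicle (FDR = 0.0387).

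E2f1, the factor that drives the E cyclins and the replication genes, rose in both APAP groups. It read 2.55, 3.10 and 3.40 CPM in control livers, 6.69, 6.41, 4.36, 7.61 and 4.67 CPM with vehicle, and 8.66, 6.44, 3.39 and 4.56 CPM with hAAMs. The vehicle-treated livers were all above control, and hAAM replicate 3 fell at the top of the control range. The rise was 1.97-fold with vehicle (log2 0.98, SE 0.29, FDR = 0.0228) and 1.91-fold with hAAMs (log2 0.93, SE 0.30, FDR = 0.0425). The call with vehicle was lost without control replicate 1 or 2, and the call with hAAMs without any of control replicates 1, 2 and 3, vehicle replicates 1 and 2, and hAAM replicates 1 and 2. Both calls were also lost with the replicate number as a block in the fit (FDR = 0.0556 and 0.0996). The FDR was 0.0018 to 0.0835 with vehicle and 0.0022 to 0.129 with hAAMs over all alternatives.

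Myc, a mitogen-induced activator of growth and ribosome genes, had the largest estimated fold change of the 10 in both comparisons. It read 11.3, 4.83 and 3.56 CPM in control livers, 16.8, 15.4, 13.4, 20.2 and 27.8 CPM with vehicle, and 16.9, 22.1, 17.7 and 12.9 CPM with hAAMs. All 9 APAP livers were above the control livers, and control replicate 1 was the highest of the control livers. Myc rose 2.86-fold with vehicle (log2 1.52, SE 0.36, FDR = 0.00834) and 2.65-fold with hAAMs (log2 1.41, SE 0.37, FDR = 0.0195). These log2 changes were 2.16 and 2.05 without control replicate 1, and 1.22 and 1.11 without control replicate 3. The hAAM call was lost without control replicate 2 or 3 or hAAM replicate 2, with a highest FDR of 0.0715. In hAAM replicate 3 Myc was not low, ranking 4 of the 9 APAP livers, unlike the 6 members that ranked 9 there.

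Cdkn1b had the estimates nearest to 0 of the 10. It read 21.6, 24.5 and 19.6 CPM in control livers, 21.1, 21.5, 22.8, 21.4 and 21.2 CPM with vehicle, and 19.8, 19.8, 27.4 and 22.5 CPM with hAAMs. The log2 fold change was -0.020 with vehicle (95% interval -0.25 to 0.21, FDR = 0.908) and 0.031 with hAAMs (95% interval -0.21 to 0.28, FDR = 0.872). Scaled by library totals alone, the median of all genes moved to 0.36 with vehicle and 0.32 with hAAMs, and Cdkn1b was at 0.32 in both and called (FDR = 0.0149 and 0.0261). Under that scaling 9 and 8 members, Cdkn1b among them, were called higher, so each change above is relative to the bulk of genes. The same scaling called 38.2% of all genes tested higher with vehicle and 29.0% with hAAMs. Of all genes called, 88.6% with vehicle and 89.4% with hAAMs were then higher, against 50.3% and 51.8% with TMM factors.

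**Figure D2:**
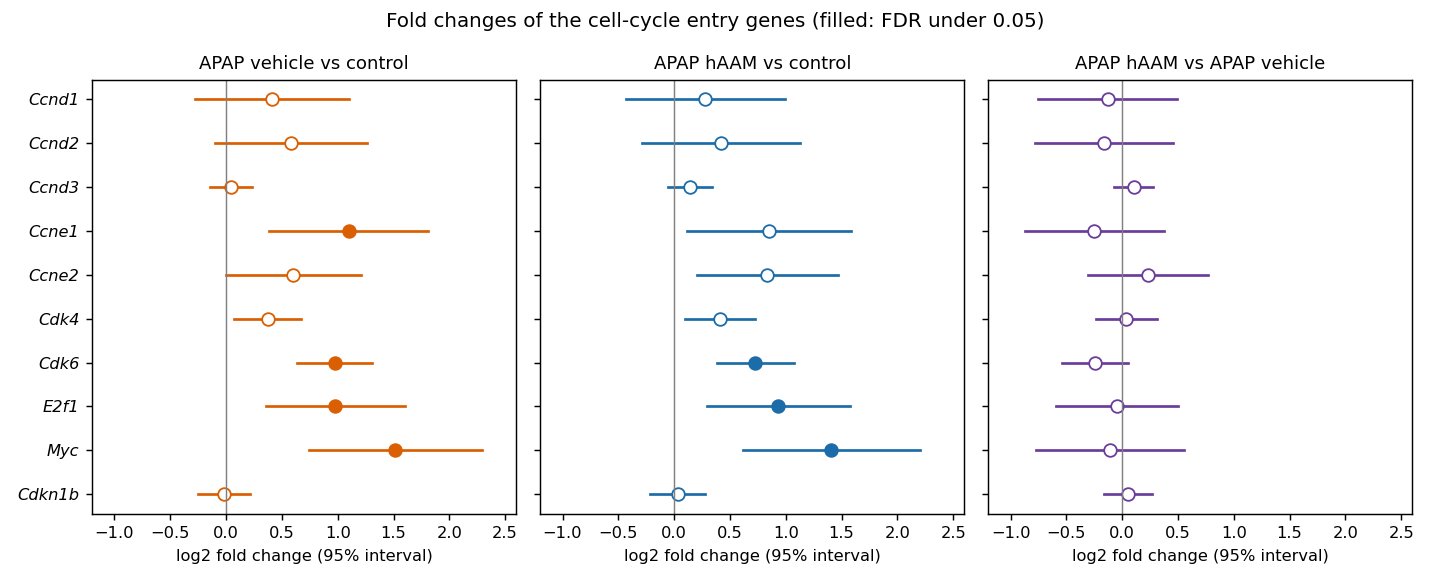
log2 fold change (x axis) of each gene (y axis) in the 3 comparisons, with 95% intervals from edgeR's quasi-likelihood fit and filled points where the FDR was under 0.05. Filled points are Ccne1, Cdk6, E2f1 and Myc with vehicle and Cdk6, E2f1 and Myc with hAAMs, and no point is filled between the treatments.

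Per kilobase of exon, Cdk4 had the highest level in all 3 groups, with 7.07 ± 0.522 CPM per kb in control (SD, n = 3), 9.15 ± 0.856 with vehicle (n = 5) and 9.39 ± 2.00 with hAAMs (n = 4). In control livers Myc was at 2.41 ± 1.52 CPM per kb, sixth of the 10, and its range overlapped those of its neighbours Cdk6 and Ccnd2. With vehicle it was at 6.89 ± 2.07 CPM per kb, below Cdk4 only, and its range overlapped those of Cdk4 and Ccnd1. The E cyclins were the lowest everywhere, and in every group the ranges of Ccne1 and Ccne2 overlapped.

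Across the 9 APAP livers, E2f1 followed the E cyclins and the proliferation marker Mki67, and Myc did not follow Ccnd1. On the log2 CPM scale Pearson's r of E2f1 with Ccne1 was 0.849 (exact permutation p = 0.00434, 0.0120 after Benjamini-Hochberg adjustment over 4 relations) and Spearman's rho 0.750 (p = 0.0255, 0.0340 adjusted). With Ccne2, r was 0.790 (exact permutation p = 0.0146, 0.0195 adjusted) and rho 0.750 (p = 0.0255, 0.0340 adjusted). With Mki67, r was 0.844 (exact permutation p = 0.00599, 0.0120 adjusted) and rho 0.900 (p = 0.0020, 0.0081 adjusted). These livers share libraries and scaling factors between the genes compared. Without the 2 livers farthest from the median E2f1, hAAM replicate 3 and vehicle replicate 3, r was 0.777, 0.811 and 0.898 (exact permutation p = 0.0492, 0.0260 and 0.0024).

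Myc and Ccnd1 gave r = -0.028 (exact permutation p = 0.919, also 0.919 adjusted) and rho = -0.133 (p = 0.744, also 0.744 adjusted), and r = -0.136 (exact permutation p = 0.766) without hAAM replicates 1 and 3, the 2 livers farthest from the median Ccnd1. After each value was centred on its treatment group, r of E2f1 was 0.858 with Ccne1, 0.849 with Ccne2 and 0.895 with Mki67. Without hAAM replicate 3, r with Ccne1 was 0.738, and its adjusted p missed the threshold. The adjusted p with Ccne2 also missed it without hAAM replicate 1 (r = 0.724), without hAAM replicate 3 (r = 0.805) and without both near-identical livers (r = 0.753), and that with Mki67 without hAAM replicate 1 (r = 0.775).

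**Figure D3:**
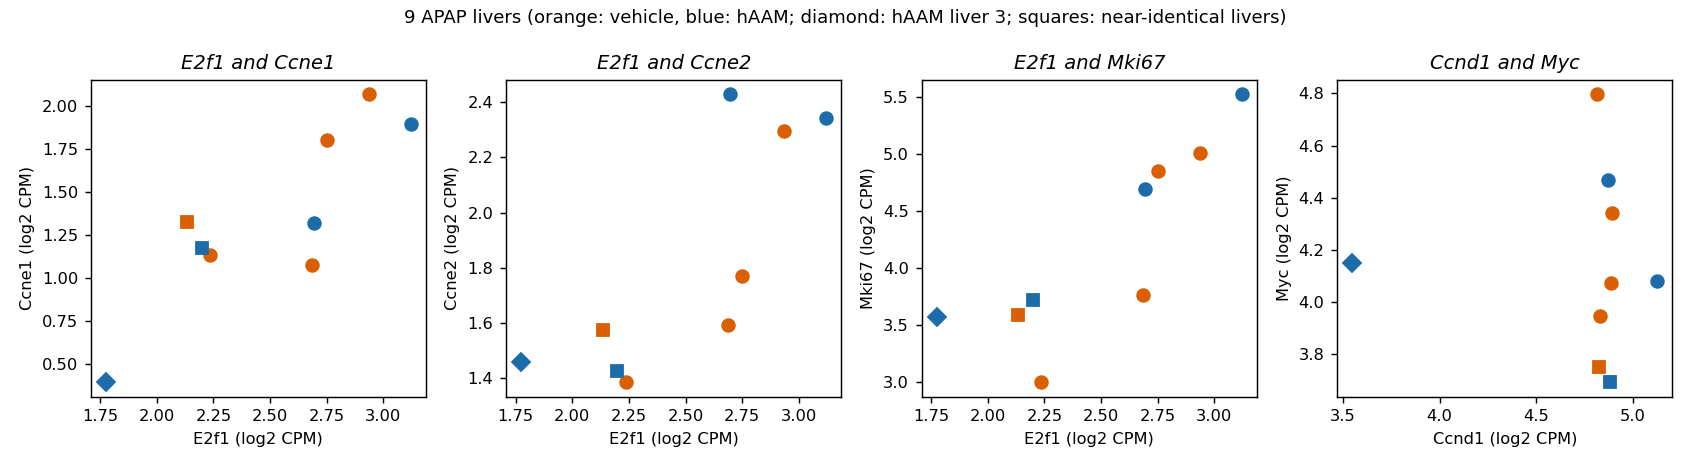
log2 CPM of E2f1 (x axis) against Ccne1, Ccne2 and Mki67, and of Ccnd1 against Myc, in 9 APAP livers, with 5 vehicle-treated in orange and 4 hAAM-treated in blue. hAAM replicate 3, the diamond, is lowest for E2f1 and for Ccnd1, and points of both treatments mix along the E2f1 axis.

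The genes that E2F factors switch on for DNA replication were counted next. Of 22 S-phase genes, 14 (63.6%) rose with vehicle, against 15.0% of all genes tested, and 13 (59.1%) with hAAMs, against 10.7%. None fell, and all 22 estimates were above 0 in both comparisons. The list's median log2 fold change was 1.04 with vehicle and 1.10 with hAAMs, against 0.012 and 0.016 over all genes. Cdc6, which loads the MCM helicase onto origins, rose by 2.32 on the log2 scale with vehicle (SE 0.59, FDR = 0.0120) and 2.47 with hAAMs (SE 0.60, FDR = 0.0152). Mcm6, a subunit of that helicase, rose by 1.93 (FDR = 0.00268) and 1.86 (FDR = 0.00601), from 5.53 to 7.09 CPM in control livers to 17.9 to 36.7 CPM with vehicle and 10.8 to 36 CPM with hAAMs. Uhrf1, which couples DNA methylation to replication, rose by 2.12 and 2.13, and Gins2, part of the active helicase, by 1.98 and 2.01. The count with vehicle was 8 without control replicate 2 or 3 and 9 without vehicle replicate 1 or 4. With hAAMs it was 5, 7 and 3 without control replicates 1, 2 and 3, and 7 without hAAM replicate 1 or 2. Without both near-identical livers it was 12 in each comparison. Calls over all genes with hAAMs also fell without control replicate 3, from 4666 to 2419.

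Of 12 genes of G2 and mitosis, edgeR called 0 with vehicle, against 15.0% of all genes higher. DESeq2 called 2 with vehicle and 5 with hAAMs, where it called 17.1% and 13.6% of all genes fitted higher. By library totals 6 and 8 were called, where 38.2% and 29.0% of all genes tested were called higher. At an unadjusted p under 0.05 edgeR gave 5 of the 12 with vehicle and 7 with hAAMs, beside 41.8% and 35.2% of all genes. With hAAMs 1 was called by edgeR (8.33%, against 10.7% of all genes higher), namely Foxm1, the factor that drives mitotic genes (log2 1.55, SE 0.50, FDR = 0.0464), which with vehicle was at 1.24 (SE 0.48, FDR = 0.0698). All 12 estimates were above 0 in both comparisons, with medians of 0.84 and 1.05. Mki67 read 14.4, 11 and 9.94 CPM in control livers, 28.9, 13.5, 12, 32.3 and 7.94 CPM with vehicle, and 46.0, 25.8, 11.9 and 13.2 CPM with hAAMs. It ran from below to several times the control level, and its log2 fold changes of 0.69 (SE 0.51, FDR = 0.336) and 1.04 (SE 0.54, FDR = 0.187) did not pass. Ccna2, the cyclin of S phase and G2, was counted in the S-phase list above and was at 1.01 (FDR = 0.158) and 1.31 (FDR = 0.104). The mitosis list's count with vehicle was 3 without vehicle replicate 5 or hAAM replicate 1, and 2 without vehicle replicate 3 or hAAM replicate 3. That with hAAMs was 4 without hAAM replicate 3, 2 without vehicle replicate 4 or 5, and 0 without any control liver, vehicle replicate 2 or hAAM replicate 1 or 2. Whether the S-phase and mitosis lists differ from each other was not tested.

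Among the other G1 kinases, activators and inhibitors, 4 of 10 rose with vehicle and 2 with hAAMs, or 40.0% and 20.0% against 15.0% and 10.7% of all genes. Cdkn1a, the p53-induced inhibitor p21, read 33.0, 15.3 and 12.5 CPM in control livers, 39.0 to 65.8 CPM with vehicle and 42.8 to 70.4 CPM with hAAMs. It rose 2.50-fold (log2 1.32, SE 0.30, FDR = 0.00696) and 2.86-fold (log2 1.52, SE 0.31, FDR = 0.00702), with no overlap between APAP and control livers, and control replicate 1 was the highest control as for Myc. Cdkn2b, an inhibitor of CDK4 and CDK6, rose by 1.30 (FDR = 0.0293) and 1.35 (FDR = 0.0391) from a low level of 0.191 to 0.377 CPM. Cdc25a, the phosphatase that activates CDK2, and Mnat1, of the CDK-activating kinase, rose with vehicle by 0.45 and 0.42. Cdk2 was at 0.20 (FDR = 0.118) and 0.17 (FDR = 0.218). Cdkn2a, with 1 to 16 counts per liver, was not tested. The count with vehicle was 1 without control replicate 3 and 2 without vehicle replicate 4, and that with hAAMs was 1 without control replicate 1 or 3, vehicle replicate 1 or hAAM replicate 1 or 2.

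Of 16 pocket protein and E2F or DREAM complex genes, 3 rose and 1 fell with vehicle, and 2 rose and 2 fell with hAAMs. The shares that rose, 18.8% and 12.5%, were near the 15.0% and 10.7% of all genes, and those that fell, 6.25% and 12.5%, stood beside 14.8% and 9.96%, so the counts are no result about the list. The fall of E2f8, an E2F that represses its targets, was the largest. It read 23.4, 37.8 and 34.2 CPM in control livers, 4.96, 3.73, 7.71, 5.13 and 10.1 CPM with vehicle, and 5.07, 6.04, 5.91 and 7.73 CPM with hAAMs. All 9 APAP livers, hAAM replicate 3 among them, were far under the control livers, and E2f8 fell by 2.33 on the log2 scale with vehicle (SE 0.27, FDR = 2.4e-04) and by 2.36 with hAAMs (SE 0.30, FDR = 5.7e-04). Its closest relative E2f7 was at 1.02 (FDR = 0.0834) and 0.98 (FDR = 0.128). The activators E2f2 and E2f3 rose with vehicle by 1.02 (FDR = 0.0297) and 0.57 (FDR = 0.00615), and Lin9, a DREAM subunit, rose in both comparisons by 0.62 and 0.54. Rb1 was at 0.20 (FDR = 0.0835) and 0.25 (FDR = 0.0610). Rbl1, the pocket protein p107, rose with hAAMs by 1.07 (FDR = 0.0362) and Lin37 fell by 0.42 (FDR = 0.0423). Without hAAM replicate 3 the list had 7 calls in each comparison, and those with hAAMs were 2 without control replicate 1 or 3 or hAAM replicate 1 or 2.

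In the Myc network, 2 of 10 genes rose and 2 fell with vehicle, and 1 rose and 2 fell with hAAMs. The shares that rose were 20.0% and 10.0%, against 15.0% and 10.7% of all genes, and 20.0% fell in each comparison, against 14.8% and 9.96%. Mycn, the N-Myc paralog, read 0.572 to 1.3 CPM in control livers, 2.23 to 4.44 CPM with vehicle and 2.69 to 4.84 CPM with hAAMs, and rose by 1.73 (SE 0.33, FDR = 0.00275) and 1.80 (SE 0.34, FDR = 0.00470). Mxd4, a MAX partner that opposes Myc, and Mlx, a relative of MAX, fell by 0.35 and 0.27 with vehicle and by 0.30 and 0.32 with hAAMs. Mxd3 rose with vehicle by 1.43 (FDR = 0.0229). Of 12 established Myc targets, the member Cdk4 among them, 3 rose in each comparison. That is 25.0% of the list, against 15.0% and 10.7% of all genes. The 3 were Ncl and Npm1, of the nucleolus, and Odc1, the first enzyme of polyamine synthesis. Odc1 rose by 0.98 (FDR = 0.00182) and 0.60 (FDR = 0.0301), and between the treatments it was lower with hAAMs by an unadjusted p = 0.0275 that did not survive adjustment (log2 -0.38, FDR = 0.966). The medians of the target list, 0.15 and 0.092, were close to those of all genes. Without hAAM replicate 3 its count was 5 in each comparison, and with hAAMs it was 0 without control replicate 3 and 1 without control replicate 1 or 2 or hAAM replicate 1 or 2.

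Of 15 genes that turn over G1 regulators, 3 rose and 4 fell with vehicle, and 1 rose and 4 fell with hAAMs. The shares that rose, 20.0% and 6.67%, were near the 15.0% and 10.7% of all genes, and the share that fell was 26.7% in each comparison, against 14.8% and 9.96%. Usp2, a deubiquitinase that stabilises cyclin D1 and also a clock-controlled gene, read 5.01 to 5.83 CPM in control livers, 12.4 to 31.7 CPM with vehicle and 7.08 to 24.3 CPM with hAAMs, and rose by 2.01 (SE 0.37, FDR = 0.00244) and 1.67 (SE 0.37, FDR = 0.0104). Skp2 and Cks1b, which present p27 for degradation, rose with vehicle by 0.45 (FDR = 0.0480) and 0.63 (FDR = 0.0345). Cul1, the scaffold of the SCF ligase that they work with, fell by 0.50 (FDR = 4.4e-04) and 0.46 (FDR = 0.00184). Rnf123, of the ligase that clears p27 in G1, fell by 0.59 (FDR = 0.0030) and 0.57 (FDR = 0.00749). The count with hAAMs was 3 without any control liver, vehicle replicate 2, 4 or 5, or hAAM replicate 1 or 2.

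**Figure D4:**
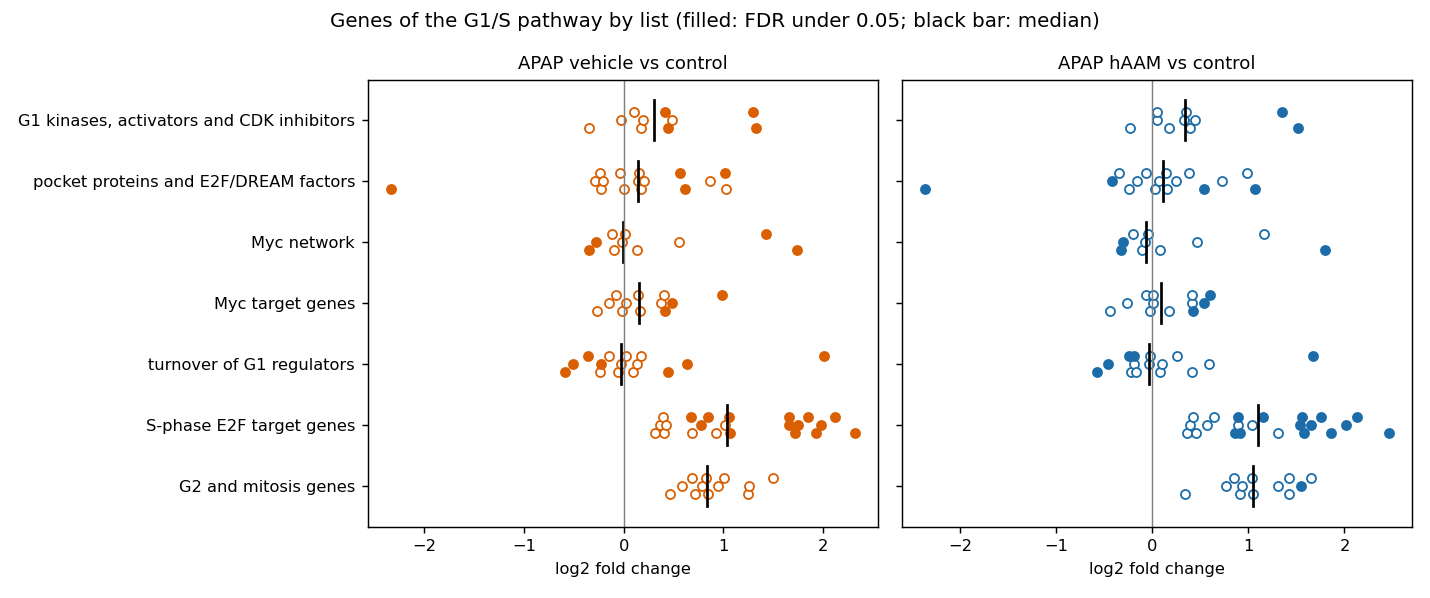
log2 fold change against control (x axis) of every tested gene of the 7 pathway lists (y axis), with vehicle in the left panel and hAAMs in the right, filled where the FDR was under 0.05 and with the list median as a black bar. All S-phase and mitosis estimates lie above 0 in both panels, and E2f8 is the point near -2.3.

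Some markers of other cell types were called against control, and their part in the values above was not tested. Their counts stand beside 15.0% of all genes higher and 14.8% lower with vehicle, and 10.7% and 9.96% with hAAMs. Of 9 macrophage markers 3 rose in each comparison, Cd68, Lyz2 and Ccr2, and 6 were not called. In each comparison 7 of the 9 estimates were above 0, with medians of 0.32 with vehicle and 0.36 with hAAMs. The 9 summed to 288 to 365 CPM in control livers, 346 to 590 CPM with vehicle and 355 to 578 CPM with hAAMs. Of 6 stellate cell and fibroblast markers 3 rose in each, Des, Col1a1 and Pdgfrb, and 5 of the 6 estimates were above 0. The 6 summed to 217 to 357, 391 to 791 and 368 to 974 CPM. The 4 livers highest in E2f1, hAAM replicate 1, vehicle replicates 4 and 1 and hAAM replicate 2, were also the 4 with the highest stellate sums, 974, 791, 726 and 814 CPM against 368 to 451 CPM in the other 5. Vehicle replicate 2 had nearly the E2f1 of hAAM replicate 2, 6.41 and 6.44 CPM, but a stellate sum of 429 CPM. The same 4 livers were also the highest in Ccr2, at 20.6 to 29.1 CPM against 8.81 to 13.6 CPM. They led in Lyz2 too, at 137 to 204 CPM against 70.9 to 103 CPM. These relations were not tested. Of 7 hepatocyte markers Hnf4a, Glul and Cyp2e1 fell with vehicle and Glul with hAAMs. Of the 7 estimates, 2 were above 0 with vehicle and 3 with hAAMs. The sum over all 7 was 51971 to 82415, 57756 to 86936 and 60508 to 91019 CPM. Of 5 endothelial markers Lyve1 rose in both comparisons and Pecam1 with vehicle, while 3 of the 5 estimates were above 0 in each and 1 marker had every APAP liver below every control liver in each. They summed to 256 to 281, 280 to 347 and 261 to 327 CPM. None of the 5 T and NK cell, 5 B cell, 4 cholangiocyte or 5 tested neutrophil markers was called. T and NK markers summed to 0.636 to 2.83 CPM in every liver. Vehicle replicate 5, which had the highest Myc, also had the highest B cell sum, 59.7 CPM against 3.90 to 9.16 in the other livers, and the highest erythroid sum, 2025 CPM against 135 to 733. Of 5 erythroid markers the 4 haemoglobin genes rose with vehicle, and Alas2, which makes haem in red cell precursors, fell in both comparisons.

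Between hAAM-treated and vehicle-treated mice, no member passed the test. It called 0 of 22581 genes (0.00%), with 1133 genes (5.02%) at an unadjusted p under 0.05 and 1 gene called by DESeq2, and 0 of the 10 members reached an unadjusted p under 0.05. Ccne1 had a log2 difference of -0.25 (SE 0.29, 95% interval -0.87 to 0.37), which was -0.53 to 0.045 over all alternatives and -0.040 without hAAM replicate 3. Cdk6 was at -0.24 (SE 0.14, 95% interval -0.54 to 0.056), at -0.34 to -0.13 over all alternatives and at -0.13 without that liver. Ccne2 was at 0.23, at 0.37 without that liver, at 0.33 without both near-identical livers, and at 0.049 to 0.58 over all alternatives. The intervals were -0.76 to 0.49 for Ccnd1, -0.78 to 0.45 for Ccnd2, -0.30 to 0.77 for Ccne2, -0.59 to 0.50 for E2f1 and -0.77 to 0.56 for Myc. All of them hold 0. Ccnd3, Cdk4 and Cdkn1b had narrower ones, -0.069 to 0.27, -0.24 to 0.31 and -0.16 to 0.27. Without hAAM replicate 3 the estimates of Ccnd1, Ccnd2 and E2f1 turned positive, at 0.11, 0.088 and 0.14, and that of Cdkn1b turned negative, at -0.060, with 0 members called. Without both near-identical livers edgeR again called 0 members, and DESeq2 called 88 genes and 0 members.

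The genes outside these lists whose log2 CPM ran most alike over all 12 livers, among 11059 compared, were found as a description. For E2f1 they were Pkig (r = 0.992), Ttc5 (r = 0.982) and Dnmt1 (r = 0.981). For Ccne1 they were Pole (r = 0.947), Gm7392 (r = 0.944) and Tubgcp2 (r = 0.943). For Myc they were Gm39041 (r = 0.975), Bcl2l11 (r = 0.962) and Itprip (r = 0.955). For Ccnd1, which did not separate the groups, they were Meis2 (r = 0.924), Smn1 (r = 0.908) and Ubl4a (r = 0.907). The points share libraries and include both injured and control livers.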

How the data were processed

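Bulk RNA sequencing of 12 mouse livers gave the data, in the 3 groups of the labels. The authors trimmed the reads with cutadapt 4.6, aligned them with STAR 2.7.1a to GRCm38 and counted them per Ensembl gene. Their counting mode and use of strand are not given in the sources used here. The deposited values are raw counts for 24187 genes, not normalized. A GENCODE annotation of GRCm38 gave symbols for 24128 of them.

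The filterByExpr function of edgeR, run by group, dropped genes with low counts and left 22581 genes. A quasi-likelihood model (edgeR 4.0.16, R 4.3.3, TMM factors 0.832 to 1.14) was fitted to all 12 livers, with two-sided tests and the Benjamini-Hochberg FDR over all genes tested. Its biological coefficient of variation was 0.214, and a prior count of 2 entered each log2 CPM. In counts simulated for vehicle against control over 22581 genes, 200 were changed. The fit called 86% of genes changed 4-fold and 58% of those changed 2-fold, with 12 false calls. In the data 6719 genes were called, far more than were changed there, so these shares do not measure the power here. Total counts ranged from 47391650 to 74056505.

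The 10 members were named, with Mki67, Cdk2, Rb1, Cdkn1a and Ccna2, and up to 4 further genes of each pathway list by the largest change among those called with vehicle. Other genes, such as Foxm1, Skp2, Rbl1, Lin37, E2f7, the overlapping genes and the markers, were named after their values were seen. The members and lists were chosen with earlier results of these data known. Alternatives were DESeq2 1.42.0, limma 3.58.1, other scaling factors, filters, thresholds and prior counts, a replicate block, fits of the groups compared alone, and leaving out livers. Fits without the near-identical livers by DESeq2, and without hAAM replicates 3 and 4 and vehicle replicate 3 together, were added after seeing the data.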

Additional observations from a re-analysis of the deposited data

Results flagged for a closer look

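Of 20 gene and group combinations of 4 or 5 livers, 2 held a liver far from the rest of its group, and chance alone flags about 1 in 20. In hAAM-treated mice, Ccnd1 in replicate 3 was at a log2 CPM of 3.55, and the nearest of the other livers was at 4.87. In vehicle-treated mice, Cdkn1b in replicate 3 was at a log2 CPM of 4.52 against 4.43 in the nearest liver and 4.40 in the lowest.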

How the results depend on the processing

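Of 720 fold changes of members under alternatives, 638 kept their direction and side of the threshold, 39 newly passed it, 20 no longer did and 23 turned direction. The cause of each change below was not tested. Genes called with vehicle (6719) were 3183 at an FDR of 0.01 and 4253 with a replicate block. Those with hAAMs (4666) were 1543 at an FDR of 0.01, 7340 by library totals, 2729 with the compared groups alone, 2959 with the replicate block, and 2419 to 5456 without 1 liver. Between treatments DESeq2 called 1 gene, and 88 without both near-identical livers, and edgeR 0 to 1 without 1 liver. Members called with vehicle were 2 at an FDR of 0.01, 9 by library totals, 7 without hAAM replicates 3 and 4 and vehicle replicate 3 together (chosen after seeing the data), and 2 to 6 without 1 liver. With hAAMs they were 1, 8 and 7, then 5 with DESeq2, 5 without both near-identical livers by either tool, and 1 to 7 without 1 liver. Without both near-identical livers, the mitosis list had 1 call with vehicle and the Myc targets had 4. With hAAMs the G1 list then had 3 calls and the turnover list 4. Of the pathway lists, with vehicle and with hAAMs, library totals gave 8 and 7 calls in the G1 list, 11 and 9 in the pocket protein list, 7 and 7 among Myc targets and 20 and 21 among S-phase genes, and DESeq2 gave 7 and 7 in the pocket protein list. Over all 22581 genes fitted, library totals called 9747 and 7340, and DESeq2 called 7678 and 5815.

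The same replicate numbers recur in the groups. Over 10 same-numbered pairs the deviations from the group means correlated at -0.458 to 0.385, 3 of them over 0.1. Pairs of unlike number gave -0.477 to 0.502. No pairing by number was seen, though groups this small cannot exclude one. With the replicate block 3 members were called with vehicle and 2 with hAAMs, E2f1 in neither, and Myc between treatments turned to 0.097.

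Some fold changes that were not called with TMM factors turned direction. By library totals, Cdkn1b was called at 0.32 with vehicle, and was at -0.0051 between treatments, and r of Ccnd1 with Myc was 0.241. With TMM factors and without both near-identical livers that r was 0.094. Without the 3 livers together, Cdkn1b was at -0.15 with hAAMs and -0.11 between treatments, where Ccnd1 was at 0.14, Ccnd2 at 0.18, Ccne1 at 0.045 and E2f1 at 0.24. Without 1 liver, Cdkn1b was -0.094 to 0.068 with vehicle, -0.080 to 0.12 with hAAMs and -0.060 to 0.11 between treatments. There Ccnd1 was -0.29 to 0.11, Ccnd2 -0.38 to 0.088, Cdk4 -0.078 to 0.12, E2f1 -0.31 to 0.14 and Myc -0.24 to 0.080. r of E2f1 was 0.738 to 0.912 with Ccne1, 0.724 to 0.847 with Ccne2 (0.753 without both near-identical livers) and 0.775 to 0.901 with Mki67, and r of Ccnd1 with Myc -0.108 to 0.031. The lowest count of Ccne1 in a liver was 60, and the part of depth was not tested.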
